A study of Mus musculus with 17 samples.

Results

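The MAP kinase cascade genes were followed in 3 subsets of mouse synovial macrophages. They were taken from the count table as every symbol that begins with Map4k, Map3k, Map2k, Mapk or Mapkapk and a number, without Map3k7, Map3k8 and Map3k14, which act mainly in NF-kappaB signaling. This rule gave 50 of 22859 genes. Of these, 43 encode kinases (5 MAP4K, 15 MAP3K, 7 MAP2K, 13 MAPK and 3 MAPKAPK) and 7 are scaffolds, interacting proteins or noncoding transcripts with such a symbol. Levels were high enough to be tested for 46 of the 50, and Map3k21, Mapk4, Mapk10 and Map3k7cl were not tested. Map3k6 was named in the choice of members, which was made with earlier results of these data known.

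All mice carried the genotype Fcgr2b-KO, that is, they lacked the inhibitory receptor for IgG, and no wild-type library was analysed here. Immune complexes (ICs) of ovalbumin and rabbit antibody to ovalbumin had been injected into a vein 8 h before the synovium, the membrane that lines joints, was taken, and controls are labelled Healthy. Macrophages were sorted as LYVE1+CX3CR1+ (labelled Lyve1), MHCII+CD11c- (labelled IAIE) and MHCII+CD11c+ (labelled CD11c), with 3 libraries per subset and treatment except MHCII+CD11c+ after IC, which had 2. The labels give neither age nor sex and do not say whether libraries came from separate animals, so p-values measure the spread between these libraries, which may be in part technical.

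In a MAP kinase cascade, a MAP3K phosphorylates and activates a MAP2K, and the MAP2K in turn activates a MAPK such as ERK, JNK or p38. MAP4Ks act above the MAP3Ks, and MAPKAP kinases are activated by the MAPKs. In macrophages these cascades carry signals from Fc receptors and Toll-like receptors and control the transcripts of cytokines. They are regulated to a large extent by phosphorylation, which RNA-seq does not measure.

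Libraries held between 2301913 and 7248939 counts. Fcgr2b itself had between 69.3 and 248 CPM (a count scaled per library by its total and TMM factor) in the 17 libraries, and the tables do not show which exons those reads came from. Sort markers separated the subsets but moved with IC. Itgax, the gene of CD11c, had 275 to 443 CPM in MHCII+CD11c+ libraries and 0.00 to 4.68 CPM in LYVE1+CX3CR1+ libraries. Markers of the LYVE1 sort (Lyve1, Cx3cr1, Vsig4, Timd4 and Folr2) summed to 3552 to 4385 CPM in LYVE1+CX3CR1+ controls and 5560 to 6516 CPM after IC. In MHCII+CD11c- libraries they summed to 988 to 1721 CPM in controls and 1817 to 3293 CPM after IC, and MHC class II genes to 16325 to 17607 CPM and 11130 to 11574 CPM. Summed macrophage markers (Adgre1, Csf1r, Cd68, Mertk and Fcgr1) were present in every library but lower in MHCII+CD11c+ controls (1254 to 1569 CPM) than in LYVE1+CX3CR1+ controls (3867 to 5217 CPM). MHCII+CD11c+ control replicate 2 stood apart from the other libraries of its group, with 581 CPM of LYVE1-sort markers against 83.6 and 57.5 CPM. MHCII+CD11c- control replicate 2 stood apart in the same way, with 1721 CPM against 988 and 1122 CPM. Markers of neutrophils summed to 462, 81.5 and 264 CPM in MHCII+CD11c+ controls and to 1.76 and 0.550 CPM after IC. In MHCII+CD11c- controls they summed to 251, 79.3 and 1.67 CPM. In bulk libraries, fewer cells of a type and less RNA per cell cannot be told apart.

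The results turned most on Map3k6, which encodes ASK2, a stress-activated MAP3K that works in a complex with ASK1 (Map3k5). The gene lies at chr4:133240818-133252929 on the plus strand (GENCODE M21, GRCm38). The 250 bases in front of its start, chr4:133240568-133240817 on GRCm38.p6 as given by RefSeq, are shown because no other member changed with IC in more than 1 subset. Capitals mark a match to the glucocorticoid receptor motif, a pair of inverted half-sites with a gap, searched on both strands.
Map3k6 promoter: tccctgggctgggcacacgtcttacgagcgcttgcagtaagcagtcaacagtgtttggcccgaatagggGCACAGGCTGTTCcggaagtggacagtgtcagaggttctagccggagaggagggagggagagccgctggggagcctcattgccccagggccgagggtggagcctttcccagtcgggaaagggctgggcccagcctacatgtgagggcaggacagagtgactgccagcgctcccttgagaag
The match spans bases 181 to 169 before the start. The motif occurred in 0.387% of 32851 promoters of this length and in 1 of the 52 promoters found for 39 members. Of the other motifs searched, none was present in the Map3k6 window. The AP-1 motif TGANTCA occurred in 5.77% of member promoters and 6.75% of all promoters, the CRE motif TGACGTCA in 1.92% and 1.55%, and the SP1 motif GGGCGG in 55.8% and 32.7%. A match of letters is a description of the sequence and shows no binding.

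Levels were first compared between members per kilobase of exon. Mapkapk2, which encodes the p38-activated kinase MK2, had the highest level of all members in each of the 6 groups, between 103 ± 3.86 CPM per kb (SD, n = 3, MHCII+CD11c+ controls) and 157 ± 8.75 CPM per kb (n = 3, MHCII+CD11c- after IC). The next member in any group reached at most 62.0 ± 6.19 CPM per kb (Mapk3, LYVE1+CX3CR1+ controls, n = 3). Mapk14, which encodes p38 alpha, stood between 35.6 ± 0.373 and 56.4 ± 14.1 CPM per kb (n = 3 each). In controls, its level overlapped with that of Mapk3, the gene of ERK1, in both MHCII+ subsets when their spreads are taken into account.

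Among the upper tiers, Map4k4, Map3k1, Map3k3 and Map3k11 were the members with the highest levels per kilobase in LYVE1+CX3CR1+ controls, with means from 27.5 to 31.9 CPM per kb. MAP2Ks ranged from 1.06 CPM per kb for Map2k6 (MHCII+CD11c- after IC) to 47.9 CPM per kb for Map2k3 (MHCII+CD11c+ controls). Both of these encode activators of p38. At the other end, 11 members had a mean under 5 CPM in every group, among them the 4 that were not tested. The other 7 were Map3k13, Map3k19, Mapk13, Mapk15, Mapkapk5, Mapk8ip1 and Mapk8ip2. Mapk10, which encodes the JNK known mainly from neurons, was in this group with a mean of at most 1.94 CPM. Of the exon bases of Mapkapk5, 56.5% are shared with Adam1a and 56.4% with Gm42878, both on the same strand. Reads of the shared bases cannot be assigned to 1 gene, so its count may miss part of its reads.

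**Figure D1:**
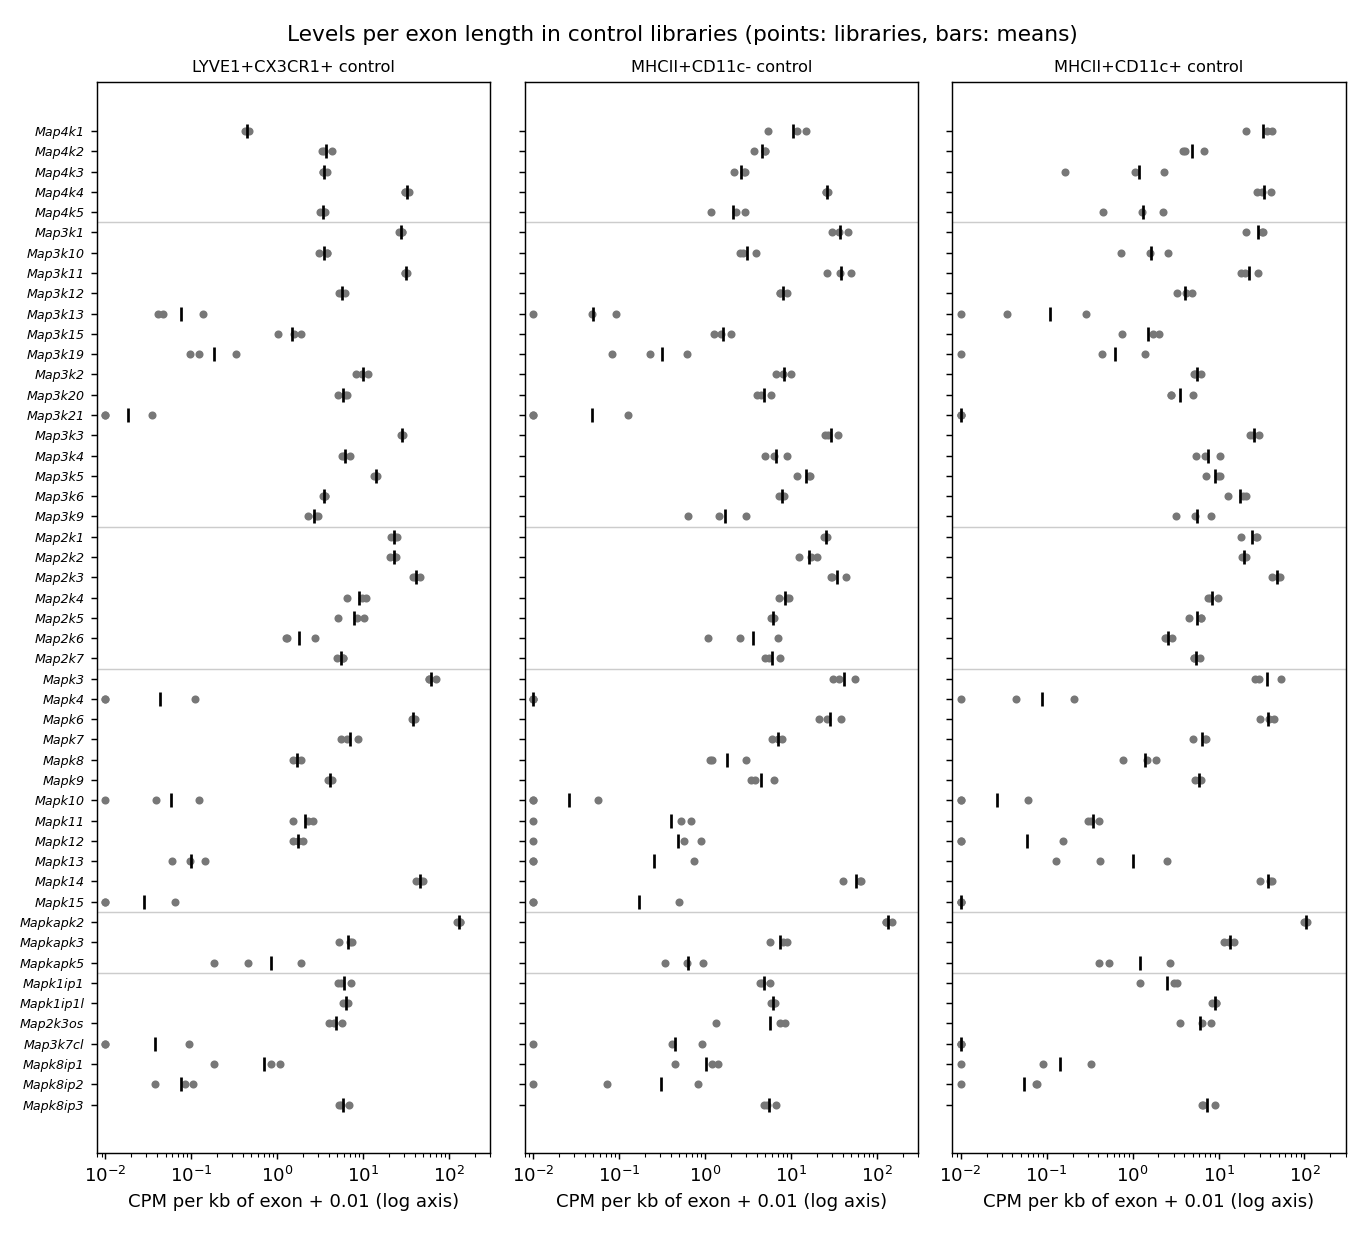
Level of 49 of the 50 members per kilobase of exon in the control libraries of the 3 subsets (x axis, CPM per kb plus 0.01, log axis), ordered by tier from MAP4K to partner or noncoding members. Points are libraries (n = 3 per subset) and bars are means. The mean of Mapkapk2 lies above 100 CPM per kb in every subset, and that of Map4k1 moves from 0.434 CPM per kb in LYVE1+CX3CR1+ to 33.3 CPM per kb in MHCII+CD11c+ controls.

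The question of the IC contrasts was which transcripts differ 8 h after IC within a subset. In LYVE1+CX3CR1+ macrophages, Map3k6 rose and Map3k12 and Map3k1 fell, while Map3k6 also rose in MHCII+CD11c- macrophages. No member passed the test in MHCII+CD11c+ macrophages. A gene was called at an adjusted p under 0.05 in edgeR's quasi-likelihood test, adjusted over the 15272 genes tested in a contrast. By that rule 3 of 46 members (6.52%) were called in LYVE1+CX3CR1+ macrophages, where 0.963% of all genes were called (0.151% higher and 0.812% lower). Of the 3, 1 was higher and 2 were lower. The count was 1 of 46 (2.17%, against 0.701% of all genes) in MHCII+CD11c- and 0 of 46 (against 0.216% of all genes) in MHCII+CD11c+ macrophages. Since Map3k6, called in the first 2 of these subsets, was named when the members were chosen, the shares are no test of the members as a set.

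Map3k6 had 16.4, 16.5 and 15.6 CPM in LYVE1+CX3CR1+ controls and 55.3, 83.7 and 60.2 CPM after IC. All libraries after IC lay above all controls. This was a rise of 2.04 ± 0.26 on the log2 scale (SE, 4.11-fold, 95% interval 1.51 to 2.57, edgeR adjusted p = 0.00016), and the gene was called under all 12 alternatives, with adjusted p between 1.51e-10 and 0.00856.

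In MHCII+CD11c- macrophages Map3k6 went from 36.3, 33.0 and 38.1 CPM in controls to 76.1, 91.3 and 124 CPM after IC, again without overlap. The rise was 1.44 ± 0.25 (2.71-fold, 95% interval 0.93 to 1.95, edgeR adjusted p = 0.00406). Without replicate 3 after IC, the library at 124 CPM, it was 1.22 ± 0.26 and missed the threshold (adjusted p = 0.0565, the highest of 12 alternatives that began at 8.55e-05). Without control replicate 2, which stood apart, the rise was 1.38 ± 0.29 (adjusted p = 0.0171). The part of the marker sums that moved with IC in this subset (LYVE1-sort markers higher, MHC class II genes lower, neutrophil markers from 1.67 to 251 CPM in controls and 2.00 to 19.8 CPM after IC) was not tested.

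In MHCII+CD11c+ macrophages the controls had 88.3, 59.1 and 96.8 CPM of Map3k6 and the libraries after IC 56.4 and 64.9 CPM. The groups overlapped, and the difference was -0.42 ± 0.27 (95% interval -0.98 to 0.14, edgeR adjusted p = 1). In the interaction of LYVE1+CX3CR1+ with MHCII+CD11c+ macrophages, Map3k6 was the 1 of 46 members called, beside 0.0327% of all genes. It was named in the choice of members, so this share is no test of them. Its response in LYVE1+CX3CR1+ exceeded that in MHCII+CD11c+ macrophages by 2.46 ± 0.38 (95% interval 1.68 to 3.24, interaction term, edgeR adjusted p = 0.00547). Without MHCII+CD11c+ replicate 1 after IC, which leaves that group with 1 library assumed to vary like the others, the value was 2.40 and the adjusted p 0.0956.

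The Map3k6 responses of the MHCII+ subsets differed by -1.86 ± 0.37 (MHCII+CD11c+ minus MHCII+CD11c-, 95% interval -2.63 to -1.10, edgeR adjusted p = 0.315). Without MHCII+CD11c+ control replicate 2, the library that stood apart, the adjusted p was 0.0121. By edgeR 0 of 46 members were called in this interaction (0% of all genes), with 4 at an unadjusted p under 0.05 (8.7%, beside 3.25% of all genes). DESeq2 called 1 member, Map3k6, and 2 of 22832 genes. Between LYVE1+CX3CR1+ and MHCII+CD11c- macrophages the responses differed by 0.60 ± 0.35 (95% interval -0.12 to 1.32, edgeR adjusted p = 0.743). There edgeR and DESeq2 each called 0 members (0.0262% of all genes by edgeR, 38 of 13968 genes by DESeq2). By edgeR 2 members had an unadjusted p under 0.05 (4.35%, beside 7.54% of all genes).

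After IC, the Map3k6 levels of the 3 subsets lay closer together than in controls. In controls LYVE1+CX3CR1+ was below MHCII+CD11c+ by a log2 difference of -2.33 ± 0.26 (edgeR adjusted p = 6.55e-07), and after IC the same difference was 0.13 ± 0.27 (95% interval -0.43 to 0.69, adjusted p = 0.819). MHCII+CD11c- lay between them in controls, below MHCII+CD11c+ by 1.18 ± 0.25 (adjusted p = 0.00273). It was also above LYVE1+CX3CR1+ (LYVE1+CX3CR1+ minus MHCII+CD11c-, -1.15 ± 0.25, adjusted p = 0.0167). This last call was lost when MHCII+CD11c- control replicate 1 or 3 or any of the 3 LYVE1+CX3CR1+ controls was left out (adjusted p from 0.0575 to 0.0903). After IC the MHCII+CD11c- libraries (76.1, 91.3 and 124 CPM) all lay above those of MHCII+CD11c+ (56.4 and 64.9 CPM), the reverse of the order in controls. They overlapped with LYVE1+CX3CR1+ (55.3, 83.7 and 60.2 CPM). Map3k6 was called in neither of these comparisons. Map3k5, the gene of the ASK1 partner, did not pass in any IC contrast, with log2 differences of 0.07 ± 0.23, -0.28 ± 0.23 and 0.21 ± 0.25.

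**Figure D2:**
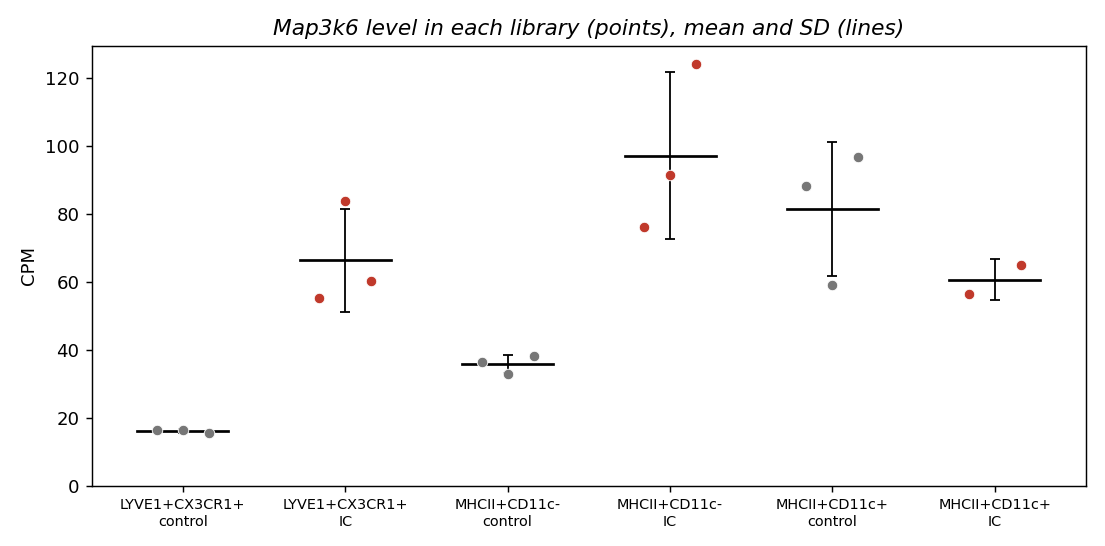
Map3k6 level in CPM (y axis) in the 6 groups of sorted macrophages (x axis), with points for libraries, horizontal lines for means and error bars for SD (n = 3, MHCII+CD11c+ after IC n = 2). Controls step up from 16.2 to 35.8 and 81.4 CPM across the subsets, and after IC the means are 66.4, 97.1 and 60.6 CPM.

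Map3k12 encodes DLK, a MAP3K above JNK that is best known from injured axons of neurons. It lies at chr15:102497646-102517064 on the minus strand. In LYVE1+CX3CR1+ macrophages it had 55.3, 49.2 and 47.2 CPM in controls and 13.2, 28.6 and 14.1 CPM after IC. The groups did not overlap, and the gene fell by 1.43 ± 0.31 on the log2 scale (edgeR adjusted p = 0.0243). The adjusted p ranged from 0.00254 to 0.14 over 12 alternatives. The call was lost without replicate 1 or 3 after IC or without any 1 of the controls (adjusted p from 0.065 to 0.121), and with only the 2 groups fitted (0.14). In all, 17.5% of the exon bases of Map3k12 are shared with Pcbp2 on the opposite strand, and whether counting used the strand is not given in the sources used here, so reads of the shared bases cannot be assigned to either gene. Pcbp2 itself differed by 0.04 ± 0.20 in the same contrast (adjusted p = 0.973).

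Map3k1 encodes MEKK1, which activates the JNK branch and also carries a ubiquitin ligase domain. It lies at chr13:111746428-111808993 on the minus strand. LYVE1+CX3CR1+ controls had 211, 192 and 211 CPM, and libraries after IC had 124, 114 and 116 CPM, again without overlap. It fell by 0.79 ± 0.19 (edgeR adjusted p = 0.048), and the call was lost when any 1 of the 6 libraries was left out (adjusted p from 0.0885 to 0.204). It was also lost with RLE factors (0.1), without the filter on low counts (0.0707) and with only the 2 groups fitted (0.0549). In MHCII+CD11c- macrophages the difference was -0.57 ± 0.19 (adjusted p = 0.236), and in MHCII+CD11c+ macrophages 0.27 ± 0.21 (adjusted p = 1).

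The other tiers held no call with IC in this fit. Over the 46 members the median log2 difference was -0.31 in LYVE1+CX3CR1+ macrophages, beside -0.14 over all genes tested, and 35 of the 46 were below 0. The share of all genes below 0 was not computed, and libraries of this subset had fewer genes with a count after IC than in controls. In MHCII+CD11c- macrophages the medians of members and of all genes were -0.16 and -0.03, and in MHCII+CD11c+ macrophages 0.02 and 0.01. The unadjusted p of edgeR was under 0.05 for 4, 7 and 3 members in these subsets. These were 8.7%, 15.2% and 6.52% of members, beside 14.1%, 9.99% and 5.21% of all genes. DESeq2 called 3 of 43, 1 of 37 and 0 of 29 members, beside 433 of 14855, 288 of 10431 and 73 of 6890 genes.

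A few members outside the naming rule, Map3k5, Map2k7, Map4k2 and the upper-tier examples given by level, were chosen after their values were seen. Map2k7 encodes a MAP2K of JNK, and its libraries after IC lay below its controls in all 3 subsets, without a pass in the test. It had between 19.1 and 22.2 CPM in LYVE1+CX3CR1+ controls and 6.44, 11.3 and 15.3 CPM after IC (log2 difference -0.94 ± 0.39, edgeR adjusted p = 0.263, and 0.0266 with surrogate variables). In MHCII+CD11c- it had 21.3, 18.9 and 28.4 CPM against 13.1, 9.27 and 15.1 CPM after IC (-0.87 ± 0.39, adjusted p = 0.441). In MHCII+CD11c+ it had between 19.7 and 23.4 CPM in controls against 12.8 and 18.1 CPM after IC (-0.44 ± 0.43, adjusted p = 1). Of its exon bases 35.2% are shared with Gm49320 on the same strand. Map4k2, a MAP4K of the germinal center kinase family, differed by -0.95 ± 0.37 in MHCII+CD11c- (adjusted p = 0.329) and by -1.02 ± 0.42 in MHCII+CD11c+ macrophages (adjusted p = 0.82). In LYVE1+CX3CR1+ it differed by -0.10 ± 0.37 (adjusted p = 0.955), and its libraries overlapped.

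The MAPKs themselves did not pass in any IC contrast of the edgeR fit of all groups. With surrogate variables added, Mapk12 (adjusted p = 0.0408) and Mapk13 (0.0466), the genes of p38 gamma and p38 delta, passed in LYVE1+CX3CR1+ macrophages, where Mapk12 had 20 to 42 and Mapk13 0 to 3 counts per library. Mapk14 had 205, 181 and 217 CPM in LYVE1+CX3CR1+ controls and 154, 158 and 156 CPM after IC. In MHCII+CD11c- macrophages it had 275, 176 and 289 CPM against 180, 152 and 154 CPM after IC, where control replicate 2 overlapped with the libraries after IC. The difference there was -0.61 ± 0.19 (edgeR adjusted p = 0.176), and it passed only without that control (adjusted p = 0.0301). Mapkapk2 differed by -0.00 ± 0.15, 0.22 ± 0.15 and 0.33 ± 0.16 in the 3 subsets.

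The JNK genes and ERK5 stood lower. Mapk9, the gene of JNK2, had group means from 22.2 ± 8.05 CPM (LYVE1+CX3CR1+ after IC) to 39.7 ± 3.40 CPM (MHCII+CD11c+ controls, n = 3 each), and Mapk8, the gene of JNK1, had group means from 15.1 to 20.3 CPM, with 0.00 to 34.1 CPM in single libraries. Per kilobase the means were 3.27 to 5.85 CPM per kb for Mapk9 and 1.32 to 1.77 CPM per kb for Mapk8. Mapk7, which encodes ERK5, had means from 22.6 ± 6.13 CPM (n = 3) to 35.3 ± 1.92 CPM (n = 2). Mapk11, the gene of p38 beta, ranged from 0.971 ± 0.147 CPM in MHCII+CD11c+ controls to 7.02 ± 4.58 CPM in LYVE1+CX3CR1+ after IC (n = 3 each). In MHCII+CD11c+ macrophages Mapk9 had 26.7 and 29.5 CPM after IC, below its controls at 35.9 to 42.5 CPM. Mapk7 had 33.9 and 36.6 CPM there, above its controls at 21.9 to 31.1 CPM. In the other comparisons of these genes with IC the libraries overlapped. The edgeR adjusted p of these 4 genes was between 0.575 and 1.

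**Figure D3:**
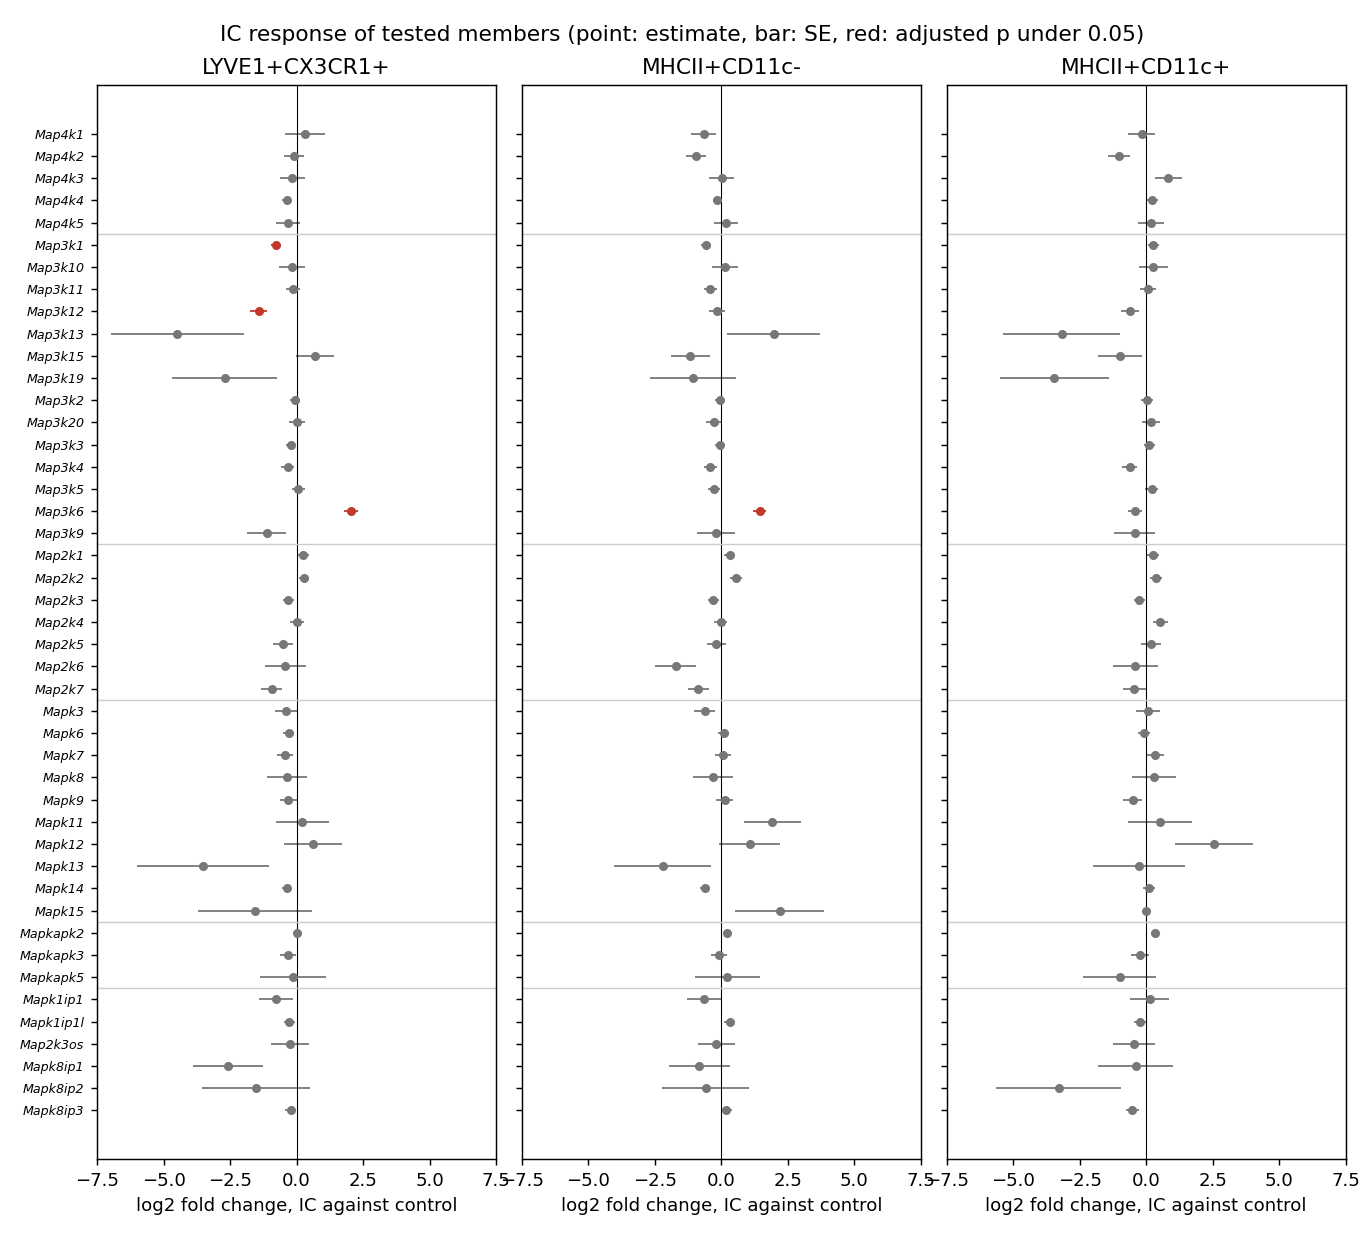
Log2 fold change after IC (x axis) for 45 of the 46 tested members (y axis, ordered by tier) in the 3 subsets, with points for estimates, bars for SE and red for adjusted p under 0.05. Red points are Map3k6, Map3k12 and Map3k1 in LYVE1+CX3CR1+ and Map3k6 in MHCII+CD11c- macrophages, and there is none in MHCII+CD11c+ macrophages.

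The second set of comparisons asked how the subsets differ. Map4k1 separated the LYVE1+CX3CR1+ subset from both MHCII+ subsets, in controls and after IC. Under both conditions MHCII+CD11c+ macrophages had more Mapkapk3 and less Map3k2 than the LYVE1+CX3CR1+ subset. In controls 7 of 46 members (15.2%) differed between LYVE1+CX3CR1+ and MHCII+CD11c+ macrophages, and 15.2% of all genes did. Of these members, 4 were higher in LYVE1+CX3CR1+ (7.83% of all genes were) and 3 were lower (7.4% of all genes). Between MHCII+CD11c+ and MHCII+CD11c- controls 3 members were called (6.52%, against 8.66% of all genes), and between LYVE1+CX3CR1+ and MHCII+CD11c- controls 2 (4.35%, against 1.56%). After IC the counts were 5 (10.9%, against 11.9% of all genes), 3 (6.52%, against 4.03%) and 3 (6.52%, against 5.54%), in the same order. Over all subset contrasts 10 members were called, and 36 of the 46 were called in no contrast of any kind. The matching pooled shares of all genes were not computed, so these counts do not set the members apart.

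Map4k1 encodes HPK1, a MAP4K of blood cells that restrains signaling from antigen receptors. It lies at chr7:28982050-29003279 on the plus strand. LYVE1+CX3CR1+ libraries had 1.26, 1.35 and 1.40 CPM in controls and 2.93, 0.00 and 2.07 CPM after IC, which came from at most 10 counts per library. MHCII+CD11c- libraries had 46.3, 16.8 and 35.8 CPM in controls and 9.98, 20.4 and 31.9 CPM after IC. MHCII+CD11c+ libraries had 130, 63.9 and 114 CPM in controls and 77.0 and 106 CPM after IC. No library of the LYVE1+CX3CR1+ subset overlapped with any library of the other subsets.

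The Map4k1 difference between LYVE1+CX3CR1+ and MHCII+CD11c+ was -6.23 ± 0.62 in controls (edgeR adjusted p = 8.94e-07) and -5.76 ± 0.66 after IC (adjusted p = 8.9e-06). Against MHCII+CD11c- it was -4.59 ± 0.60 in controls (adjusted p = 0.000264) and -3.61 ± 0.63 after IC (adjusted p = 0.00187, and 0.0598 with only the 2 groups fitted). Of the MHCII+ subsets, the CD11c+ cells had more Map4k1, by 1.64 ± 0.48 in controls (adjusted p = 0.0362) and by 2.14 ± 0.52 after IC (adjusted p = 0.0209). Among the controls, that call was lost without MHCII+CD11c+ replicate 1 or 3 or MHCII+CD11c- replicate 2 or 3 (adjusted p from 0.0987 to 0.127), and without the filter (0.0674). After IC it was lost without either MHCII+CD11c+ library or without MHCII+CD11c- replicate 1 or 2 (adjusted p from 0.0598 to 0.293).

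Markers of other cells moved with this order of the subsets. Summed monocyte markers were 20.3 to 39.4 CPM in LYVE1+CX3CR1+, 235 to 526 CPM in MHCII+CD11c- and 566 to 1184 CPM in MHCII+CD11c+ controls. Summed dendritic cell markers were 19.5 to 23.4, 95.8 to 245 and 255 to 648 CPM in the same controls. Their part in the subset differences was not tested.

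Mapkapk3 encodes MK3, the close relative of MK2. It had 39.1, 29.2 and 41.3 CPM in LYVE1+CX3CR1+ controls and 64.9, 74.1 and 84.3 CPM in MHCII+CD11c+ controls, without overlap (log2 difference -1.02 ± 0.30, edgeR adjusted p = 0.0208). After IC the values were 38.6, 34.6 and 14.5 CPM against 62.6 and 65.4 CPM (-1.12 ± 0.33, adjusted p = 0.0286). The call in controls was lost without MHCII+CD11c+ replicate 3 or LYVE1+CX3CR1+ replicate 2 (adjusted p of 0.0767 and 0.103). The call after IC was lost without either MHCII+CD11c+ library or LYVE1+CX3CR1+ replicate 3 (0.0908 to 0.184), and with only the 2 groups fitted (0.162).

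Map3k2, which encodes the MEKK2 kinase above ERK5 and JNK, ran the other way. It had 158, 116 and 136 CPM in LYVE1+CX3CR1+ controls and 74.2, 87.3 and 72.2 CPM in MHCII+CD11c+ controls (0.81 ± 0.19, edgeR adjusted p = 0.00474, and 0.0572 without LYVE1+CX3CR1+ replicate 1). After IC it had 107, 140 and 143 CPM against 78.4 and 82.5 CPM (0.69 ± 0.22, adjusted p = 0.0417). Neither pair of groups overlapped. The call after IC was lost without either MHCII+CD11c+ library or LYVE1+CX3CR1+ replicate 2 or 3 (adjusted p from 0.0798 to 0.25), without the filter (0.0553) and with only the 2 groups fitted (0.0761).

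Among controls, Map4k3, Map4k5 and Mapk12 were lower in MHCII+CD11c+ macrophages than in the LYVE1+CX3CR1+ subset. Map4k3, which encodes GLK, had 33.2, 33.2 and 37.3 CPM against 10.4, 23.0 and 1.51 CPM (1.52 ± 0.47, edgeR adjusted p = 0.0288). Map4k5 had 27.1, 31.1 and 30.3 CPM against 11.1, 19.3 and 3.78 CPM (1.34 ± 0.45, adjusted p = 0.045). Both calls were lost without MHCII+CD11c+ replicate 1 or 3 or any LYVE1+CX3CR1+ control, with adjusted p from 0.0604 to 0.101 for Map4k3 and from 0.0954 to 0.171 for Map4k5. With only the 2 groups fitted they were lost as well (0.134 for Map4k3 and 0.0729 for Map4k5).

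Mapk12, the gene of p38 gamma, had 6.61, 7.57 and 5.72 CPM in LYVE1+CX3CR1+ controls against 0.00, 0.557 and 0.00 CPM in MHCII+CD11c+ controls. This was 111 counts against 3, a depth-adjusted ratio of 27.4 with an exact 95% interval of 9.12 to 135 that covers counting error only. Its edgeR adjusted p was 0.0217, and it was 0.0927 and 0.0752 without MHCII+CD11c+ replicate 1 and 3.

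**Figure D4:**
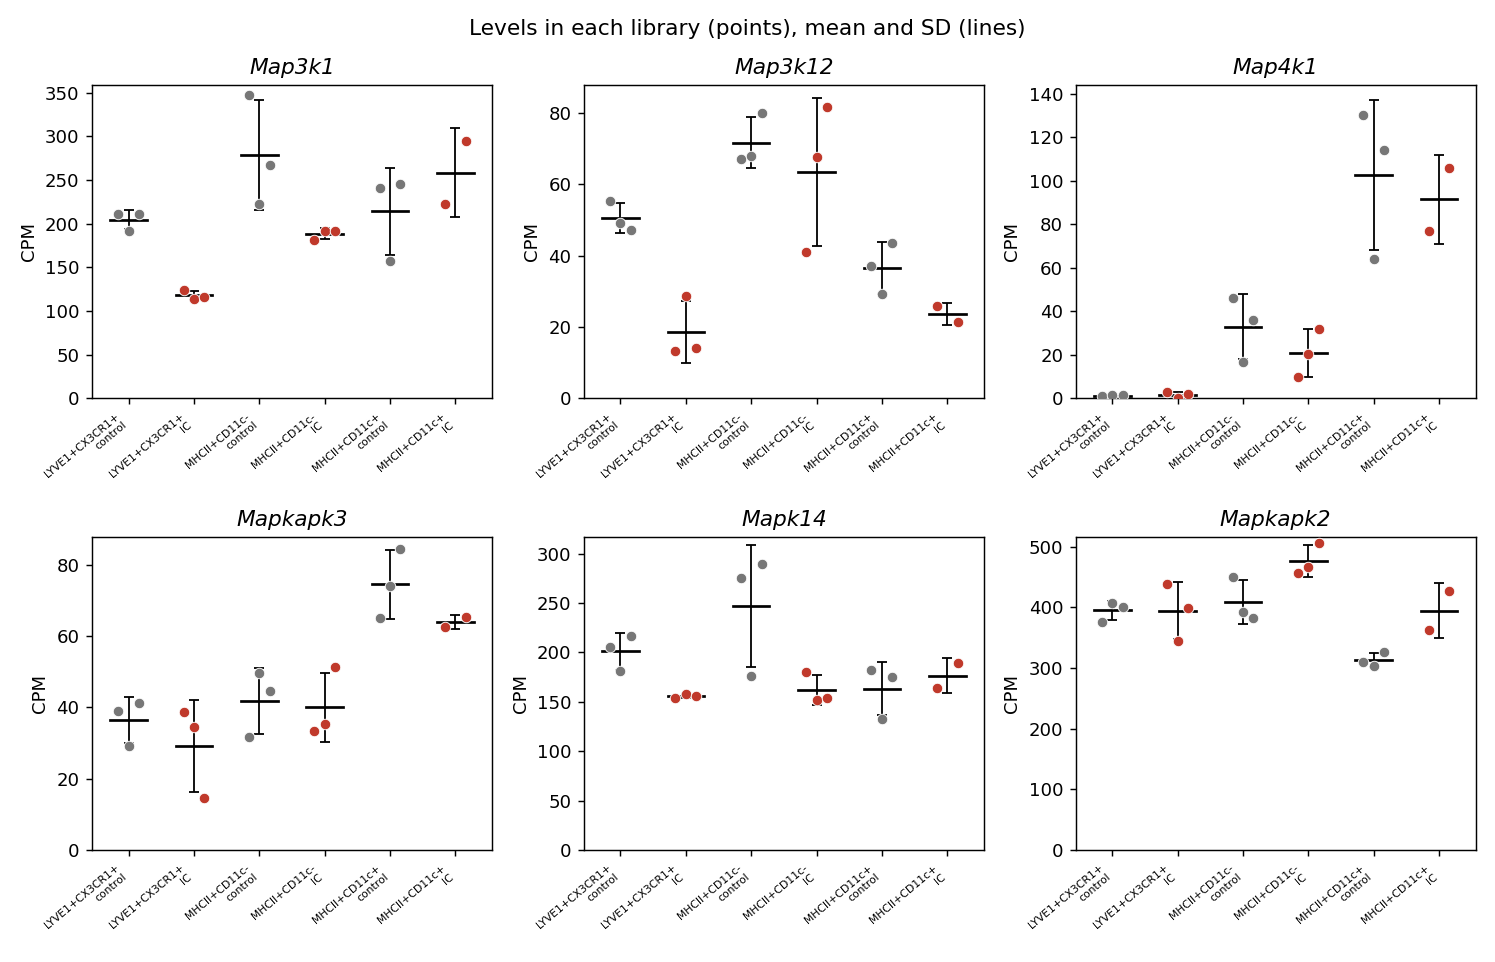
Levels in CPM (y axis) of Map3k1, Map3k12, Map4k1, Mapkapk3, Mapk14 and Mapkapk2 in the 6 groups (x axis), with points for libraries, lines for means and error bars for SD (n = 3, MHCII+CD11c+ after IC n = 2). Map4k1 stays at or below 2.93 CPM in every LYVE1+CX3CR1+ library, whereas Mapkapk2 lies between 304 and 506 CPM in every library.

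Of the members that changed with IC, Map3k12 and Map3k1 also differed between subsets after IC. Map3k12 had 41.0, 67.8 and 81.7 CPM in MHCII+CD11c- after IC, above all 3 LYVE1+CX3CR1+ libraries (LYVE1+CX3CR1+ minus MHCII+CD11c-, -1.76 ± 0.31, edgeR adjusted p = 0.00121). Of the MHCII+ subsets, the CD11c+ cells had less of it, by a log2 difference of -0.97 ± 0.30 in controls (adjusted p = 0.0419) and -1.42 ± 0.35 after IC (adjusted p = 0.0169). The call in controls was lost when any 1 of the 6 libraries was left out (0.0523 to 0.152) and with RLE factors (0.0522). The call after IC was lost without either MHCII+CD11c+ library or MHCII+CD11c- replicate 2 or 3 (0.0553 to 0.341).

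Map3k1 had 181, 192 and 192 CPM in MHCII+CD11c- and 222 and 294 CPM in MHCII+CD11c+ libraries after IC. The LYVE1+CX3CR1+ libraries lay below both, by a log2 difference of -0.67 ± 0.19 (edgeR adjusted p = 0.0403) and -1.13 ± 0.21 (adjusted p = 0.000785). The first call was lost when any 1 of its 6 libraries was left out (0.0588 to 0.115), and the second without MHCII+CD11c+ replicate 2 (0.0558). The first was also lost by DESeq2 (0.0644), with RLE factors (0.0849), without the filter (0.0721) and with only the 2 groups fitted (0.0915).

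Map4k4, which encodes HGK, had 372 and 383 CPM in MHCII+CD11c+ after IC. This was above MHCII+CD11c- (256, 222 and 197 CPM, 0.75 ± 0.20, edgeR adjusted p = 0.0277) and above LYVE1+CX3CR1+ (217, 303 and 201 CPM, LYVE1+CX3CR1+ minus MHCII+CD11c+, -0.65 ± 0.20, adjusted p = 0.0313). Both calls were lost without either MHCII+CD11c+ library, the first also without MHCII+CD11c- replicate 2 or 3 (0.0896 to 0.311) and the second without LYVE1+CX3CR1+ replicate 1 or 3 (0.103 to 0.232). The second was also lost by DESeq2 (0.0523), with RLE factors (0.0692), without the filter (0.0554) and with only the 2 groups fitted (0.109).

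Control libraries and libraries after IC were separate samples, so each subset difference was measured in other libraries, under another treatment. Both came from the same fit, which shares its estimate of the spread. Between LYVE1+CX3CR1+ and MHCII+CD11c+, Map3k2, Map4k1 and Mapkapk3 were called in both, which is 42.9% of the calls in controls and 60% of those after IC. Between MHCII+CD11c+ and MHCII+CD11c-, Map3k12 and Map4k1 were called in both (66.7% of each list), and between LYVE1+CX3CR1+ and MHCII+CD11c-, Map4k1 was (50% and 33.3%). Of the members called in either, 8 of 9, 3 of 4 and 4 of 4 had the same sign in both. The exception in the first 2 pairs was Map3k6. The same shares over all genes were not computed, so these counts do not set the members apart from other genes.

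**Figure D5:**
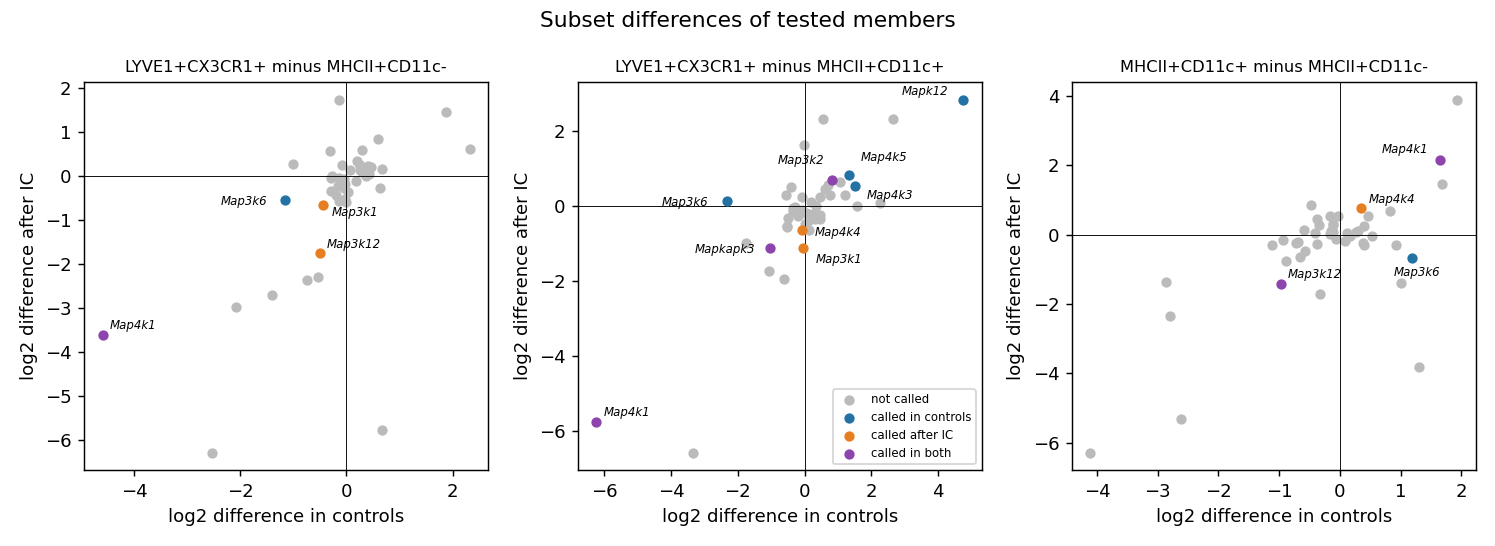
Log2 difference between subsets in controls (x axis) and after IC (y axis) for the 46 tested members in the 3 subset pairs, colored by whether the member was called in controls, after IC, in both or in neither. Map4k1 lies far out in both directions of measurement (-6.23 and -5.76 for LYVE1+CX3CR1+ minus MHCII+CD11c+), and Map3k6 lies at -2.33 in controls and 0.13 after IC.

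Genes around the cascade were taken from 5 lists: 27 upstream kinases and small GTPases, 8 kinases that act after a MAPK, 10 MAP kinase phosphatases, 14 scaffolds and 12 transcripts known to follow ERK activity. Of these, 25, 6, 9, 13 and 11 were tested. By edgeR none of them was called in an IC contrast or an interaction. Between LYVE1+CX3CR1+ and MHCII+CD11c+ controls, where 15.2% of all genes were called, 9 upstream genes (36%, 4 higher and 5 lower), 2 later kinases (33.3%, both lower), 4 phosphatases (44.4%, 2 higher and 2 lower), 1 scaffold (7.69%, higher) and 8 ERK-following transcripts (72.7%, 6 higher and 2 lower) were called. The median log2 difference was 0.06 over the upstream genes and 0.92 over the ERK-following transcripts, beside 0.05 over all genes. After IC, where 11.9% of all genes were called, the same contrast called 6 upstream genes (24%, 1 higher and 5 lower), 2 later kinases (33.3%, both lower), 5 phosphatases (55.6%, 2 higher and 3 lower), 1 scaffold (7.69%, lower) and 3 ERK-following transcripts (27.3%, 1 higher and 2 lower). The medians were then -0.20 over the upstream genes and 0.40 over the ERK-following transcripts, beside -0.12 over all genes.

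The phosphatases that switch off MAPKs moved in opposite directions. Dusp6, an ERK phosphatase, had a mean of 145 ± 33.0 CPM in LYVE1+CX3CR1+, 120 ± 45.7 CPM in MHCII+CD11c- and 30.8 ± 0.617 CPM in MHCII+CD11c+ controls (SD, n = 3 each). Dusp5, another ERK phosphatase, had means of 30.6, 59.4 and 199 CPM in the same groups, with 25.0 to 40.3, 46.5 to 77.9 and 186 to 222 CPM in single libraries. From LYVE1+CX3CR1+ to MHCII+CD11c+ these were log2 differences of 2.24 ± 0.25 for Dusp6 (edgeR adjusted p = 6.76e-07) and -2.71 ± 0.38 for Dusp5 (adjusted p = 8.01e-05), each LYVE1+CX3CR1+ minus MHCII+CD11c+.

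Among upstream genes, Rasgrp1, which loads Ras with GTP, had the lower level in LYVE1+CX3CR1+ controls set against MHCII+CD11c+ controls (-3.53 ± 0.49, edgeR adjusted p = 1.68e-05). Rac2, a small GTPase of blood cells, was lower as well (-1.09 ± 0.22, adjusted p = 0.00107). Of the later kinases, Rps6ka2, an ERK-activated kinase, was lower (-2.74 ± 0.42, adjusted p = 5.55e-05). Of the ERK-following transcripts, Spred1 was higher (1.48 ± 0.20, adjusted p = 1.1e-05), Egr1 was higher (0.92 ± 0.16, adjusted p = 0.000194) and Ccnd1 was lower (-2.35 ± 0.38, adjusted p = 0.000144).

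The genes whose levels were most like those of Map3k6 were taken by Pearson's r of log2 levels over the 17 libraries, which share groups and depth. They were Pes1 (r = 0.856), Rps2 (0.855), Gda (0.855), Pim3 (0.837) and Ccl6 (0.835). Gda, a guanine deaminase, had mean levels of 196 CPM in LYVE1+CX3CR1+ controls and 539 CPM after IC. Its means were 354 and 822 CPM in MHCII+CD11c- and 380 and 544 CPM in MHCII+CD11c+. Ccl6, a chemokine, had 439 and 1007, 1250 and 4293, and 1446 and 1942 CPM in the same order. Pes1, Rps2 and Pim3 also had higher means after IC in MHCII+CD11c+ macrophages, where Map3k6 went from 81.4 to 60.6 CPM. Among the other members the highest r with Map3k6 was that of Map4k1 (0.457) and the lowest that of Mapk3 (-0.678).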

How the data were processed

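Per the labels, the authors sorted cells, made libraries from 5 ng of RNA, trimmed reads with Trim Galore, aligned them with HISAT2 to mm10 and counted them with featureCounts. Versions, annotation and use of strand are not given in the sources used here. The deposited values are raw counts per gene, and the 17 sample files were identical to the joint table. A further column (1 in all) that matches no sample and sums to 0 was not used. The study used DESeq2 with sva for an unnamed batch.

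Here, TMM factors, filterByExpr (minimum count 10) and a robust quasi-likelihood fit of 6 group means were run in edgeR 4.0.16 (R 4.3.3) on all genes, of which 15272 were tested. Benjamini-Hochberg adjustment ran over all genes per contrast with a threshold of 0.05. SE was taken from the fold change and F, and intervals from a t quantile with edgeR's moderated degrees of freedom. The fit was tested on simulated data. Alternatives were RLE factors, no filter, surrogate variables (sva 3.50.0), only the 2 groups compared, a replicate block, DESeq2 1.42.0 and leaving out each library. The block was the replicate number across treatments for contrasts of IC with control, and the number within each treatment for all other contrasts. Replicates differed by more than sampling noise (lowest chi-square per degree of freedom 6.77). Exon lengths and positions came from GENCODE M21, which matched 22266 genes and all 50 members, and promoters from RefSeq. Library totals of 2301913 to 7248939 counts set the precision, and 3 counts were taken as the floor. The members, gene lists and tests were chosen with earlier results of these data known. Genes were named by this rule: Map3k6, members called with IC or in an interaction, up to 5 called members without overlap on each side of each subset contrast, Mapk3, Mapk7, Mapk8, Mapk9, Mapk11, Mapk14, Mapkapk2 and Mapkapk3 whatever their test, members with every library at 3 counts or fewer (0 found), the 5 genes most correlated with Map3k6, and up to 2 genes on each side per pathway list. Some genes that this rule names are not reported here.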

Additional observations from a re-analysis of the deposited data

Results flagged for a closer look

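Map3k6 responded differently to IC in LYVE1+CX3CR1+ and MHCII+CD11c+ macrophages, by the interaction term of the edgeR fit. The responses differed by 2.46 ± 0.38 on the log2 scale (adjusted p = 0.00547), with means from 16.2 to 66.4 CPM in LYVE1+CX3CR1+ (higher in 3 of 3 libraries after IC than in every control) and from 81.4 to 60.6 CPM in MHCII+CD11c+ macrophages. The adjusted p ranged from 9.26e-07 to 0.0956 over 22 alternatives, of which 21 passed, and the exception was the fit without MHCII+CD11c+ replicate 1 after IC (2.40). Neutrophil markers in MHCII+CD11c+ controls summed to 81.5 to 462 CPM against 0.550 and 1.76 CPM after IC, and their part in the Map3k6 values was not tested.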

How the results depend on the processing

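Members called in LYVE1+CX3CR1+ macrophages with IC numbered 3, 1 with only the 2 groups compared, and 7 with surrogate variables, which added Map2k7, Map3k9, Mapk12 and Mapk13. Between MHCII+CD11c+ and MHCII+CD11c- controls DESeq2 called 7 of 43 members instead of 3 of 46. Over all genes it called 1948 of 14855, beside 1323 of 15272 by edgeR. After IC, LYVE1+CX3CR1+ against MHCII+CD11c- gave 1 member with only the 2 groups and 6 with surrogate variables instead of 3. Of 15272 genes, surrogate variables called 2712 there instead of 846. LYVE1+CX3CR1+ against MHCII+CD11c+ after IC gave 3 with no filter, 2 with only the 2 groups, 3 with the replicate block and 9 with surrogate variables instead of 5. Of 15272 genes, the block called 1754 there and surrogate variables 4045 instead of 1824. The cause was not tested. Leaving out 1 library gave 1 to 2 members with IC in LYVE1+CX3CR1+, 0 to 2 in MHCII+CD11c- and 0 to 0 in MHCII+CD11c+, and 0 to 1 over the interactions. For LYVE1+CX3CR1+ against MHCII+CD11c+ it gave 3 to 8 in controls and 1 to 4 after IC, for LYVE1+CX3CR1+ against MHCII+CD11c- 1 to 2 and 2 to 3, and for MHCII+CD11c+ against MHCII+CD11c- 1 to 6 and 0 to 2. Without MHCII+CD11c+ control replicate 2, the contrast of LYVE1+CX3CR1+ with MHCII+CD11c+ controls called 8 members. Without MHCII+CD11c- control replicate 2, MHCII+CD11c- with IC gave 2 (Map3k6 and Mapk14) and MHCII+CD11c+ against MHCII+CD11c- controls 6, and Map4k1 and Map3k12 were not among them. Of 338 alternatives for the 28 single-gene results 242 passed, 96 did not and 0 reversed, and 7 results passed in every one.

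Over all genes, calls with IC in LYVE1+CX3CR1+ were 147, of which 15.6% were higher, and with RLE factors 110, of which 26.4% were higher. Surrogate variables gave 1558 and DESeq2 433, and in MHCII+CD11c- macrophages 255 and 288 instead of 107. RLE moved the median of all genes from -0.21 to -0.04 in the LYVE1+CX3CR1+ against MHCII+CD11c+ interaction. Replicate numbers were not taken to pair the samples, since 2 of 16 pairs between subsets and 0 of 8 between treatments had deviations with r over 0.1. As a hint from the data the other way, all 16 subset values were above 0 (0.00129 to 0.286), and among controls 3 of 3 MHCII+CD11c+ libraries correlated best with their own number in MHCII+CD11c- and 3 of 3 LYVE1+CX3CR1+ libraries in MHCII+CD11c+, but 1 of 3 LYVE1+CX3CR1+ libraries in MHCII+CD11c-. After IC these counts were 1 of 2, 2 of 2 and 2 of 3, in the same order. A pairing of subsets within a treatment thus stays possible, and the main fit leaves it out. With the replicate block, all-gene calls with IC went from 147 to 138 in LYVE1+CX3CR1+ and from 107 to 113 in MHCII+CD11c-, and those of the interaction from 5 to 35. The block ended the calls after IC of Map3k2 (adjusted p = 0.0791) and of Map4k4 (0.0599) between LYVE1+CX3CR1+ and MHCII+CD11c+, and of Map4k4 between the MHCII+ subsets (0.0624). The shallowest library, at 2301913 counts, was LYVE1+CX3CR1+ replicate 3 after IC, and the 11 members under 5 CPM are the least precisely measured.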
